A study of Mus musculus with 8 samples.

Results

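The genes described here are the interferon-responsive ADP-ribosyltransferase (PARP) genes Parp9, Parp10, Parp12 and Parp14 and the ubiquitin ligase gene Dtx3l, with the housekeeping genes Parp1 and Parp2 for contrast. They are 7 of the 24421 genes in the expression tables and were chosen by name. Each was measured in calvarial osteoblastic cells, which are bone-forming precursors taken from the skulls of newborn (0 to 3 days old) C57BL/6 mice. WT cells and Def6-/- cells, which lack the guanine nucleotide exchange factor Def6, were compared before (day 0) and after 12 days in osteogenic medium with ascorbic acid and β-glycerophosphate, and each of the 4 groups had 2 libraries of poly-A RNA. The knockout mice were backcrossed to the C57BL/6 background, the WT animals were their littermates, and the labels name neither a sorting step nor the number of animals behind a library.

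ADP-ribosyltransferases take ADP-ribose from NAD and attach it to proteins or nucleic acids. Parp1 and Parp2 build chains of ADP-ribose at DNA breaks and are expressed in nearly all cells. Parp10, Parp12 and Parp14 transfer single ADP-ribose units, and their genes, like Parp9 and Dtx3l, are switched on in most cell types by interferon, through transcription factors that include Stat2 and Irf9. Parp9 has little or no catalytic activity by itself and works in a complex with Dtx3l.

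The 7 genes lie at 5 places in the GRCm38 mouse genome (mm10), 3 of them together on chromosome 16. Parp9 (chr16:35938470-35972605, plus strand) and Dtx3l (chr16:35926511-35939151, minus strand) stand head to head, and Parp14 (chr16:35832874-35871544, minus strand) begins 54966 bp beyond the end of Dtx3l. Parp10 is at chr15:76231174-76243441 (minus), Parp12 at chr6:39086410-39118349 (minus), Parp1 at chr1:180568924-180601254 (plus) and Parp2 at chr14:50807841-50821301 (plus).

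Promoter sequences from RefSeq (GRCm38.p6) were matched for 4 of the 7 genes and are shown so that interferon-responsive and housekeeping members can be set side by side. Each runs 5′ to 3′ from 250 bases before to 50 bases after the start of the gene, and capitals mark GC boxes, which are binding sequences of Sp1-type factors (GGGCGG, either strand). The Dtx3l window is chr16:35938978-35939277 (minus) and lies inside the first part of the Parp9 gene, the Parp12 window is chr6:39118300-39118599 (minus), the Parp1 window is chr1:180568641-180568940 (plus) and the Parp2 window is chr14:50807666-50807965 (plus).
Dtx3l: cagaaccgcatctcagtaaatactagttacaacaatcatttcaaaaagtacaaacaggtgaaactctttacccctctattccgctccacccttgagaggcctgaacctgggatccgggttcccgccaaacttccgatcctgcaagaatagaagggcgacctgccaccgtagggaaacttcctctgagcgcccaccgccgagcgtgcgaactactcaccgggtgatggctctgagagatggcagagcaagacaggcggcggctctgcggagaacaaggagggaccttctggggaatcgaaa
Parp12: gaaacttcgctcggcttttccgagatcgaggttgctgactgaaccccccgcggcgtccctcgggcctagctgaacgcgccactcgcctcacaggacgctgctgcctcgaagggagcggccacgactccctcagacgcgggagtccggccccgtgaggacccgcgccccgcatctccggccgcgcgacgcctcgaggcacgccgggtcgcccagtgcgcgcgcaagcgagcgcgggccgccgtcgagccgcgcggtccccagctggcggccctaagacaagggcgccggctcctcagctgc
Parp1: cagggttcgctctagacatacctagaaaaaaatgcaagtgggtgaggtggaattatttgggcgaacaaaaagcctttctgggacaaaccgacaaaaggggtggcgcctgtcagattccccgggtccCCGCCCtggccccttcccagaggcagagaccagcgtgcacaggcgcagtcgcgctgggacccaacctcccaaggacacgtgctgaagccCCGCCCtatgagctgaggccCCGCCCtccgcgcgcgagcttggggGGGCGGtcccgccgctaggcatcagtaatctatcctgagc
Parp2: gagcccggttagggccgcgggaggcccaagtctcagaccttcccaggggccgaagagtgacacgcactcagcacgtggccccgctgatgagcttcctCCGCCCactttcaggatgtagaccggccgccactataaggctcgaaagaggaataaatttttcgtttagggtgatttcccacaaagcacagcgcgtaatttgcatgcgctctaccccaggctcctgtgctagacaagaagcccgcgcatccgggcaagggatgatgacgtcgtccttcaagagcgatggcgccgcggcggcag

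The Parp1 window holds 4 GC boxes and the Parp2 window 1, while those letters are in neither the Dtx3l nor the Parp12 window; 35.7% of the 32851 RefSeq promoters of this length hold a GC box. None of the 4 windows holds the core letters of the interferon-stimulated response element (GAAA, any 2 bases, GAAA; in 3.44% of promoters), those of the interferon-gamma activated site (TTCNNNGAA, in 8.30%) or a TATA box (TATAAA, in 13.6%), each searched on both strands with overlaps counted. The windows have a G and C content of 73.7% in Parp12, 62% in Parp1, 60% in Parp2 and 54.3% in Dtx3l, the last close to the median of 52.7% over all promoters. They hold 46, 20, 25 and 17 CpG dinucleotides in that order, against a median of 7.

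Reads on genes numbered between 2414856 and 3482837 per library, 28.8% to 35.3% of all reads of a library. Levels are given as normalized CPM, which are reads on a gene per 1000000 reads on genes after TMM scaling, and differences come from limma fitted to log2(normalized CPM + 1) over the 12348 genes with enough signal, a scale on which low genes change less than they do in reads. All 7 genes passed the filter, and every deposited value of theirs was a whole number of reads. Def6 itself had 112 to 186 reads in the WT libraries and 0 to 2 in the Def6-/- libraries. The 6 osteoblast markers (Runx2, Sp7, Col1a1, Alpl, Ibsp, Spp1) summed to between 20062 and 30073 normalized CPM at day 0. At day 12 the sum was between 48738 and 69361. Col1a1 was the largest contributor in each library, so the sum does not show a rise of each marker. Spp1 had a lower mean after differentiation, 2479 against 4635 in WT and 2951 against 3186 in Def6-/- cells, with overlapping libraries. Alpl and Ibsp, genes of bone mineral formation, were called higher at day 12 in both genotypes (log2 differences of Alpl 3.65 in WT and 4.45 in Def6-/- cells, and reads on Ibsp from 2 to 26 in a day 0 library and from 1551 to 6054 in a day 12 library). No other gene of the 6 was called over time in either genotype with all libraries. For Alpl the interaction of genotype and day was also called (0.80, adjusted p = 0.9998). WT day 0 replicate 1 stood apart from the other libraries: against replicate 2, its values were higher for short genes and lower for long genes. The median log2 difference was 0.92 for genes with up to 1500 bp of exons, 0.49 from 1500 to 3000 bp, 0.12 from 3000 to 5000 bp and -0.32 above 5000 bp, whereas the same medians were between -0.05 and 0.08 in the other groups. Where leaving out this library changed a call or the sign of a difference of 1 of the 7 genes, the value without it is also given.

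**Figure D1:**
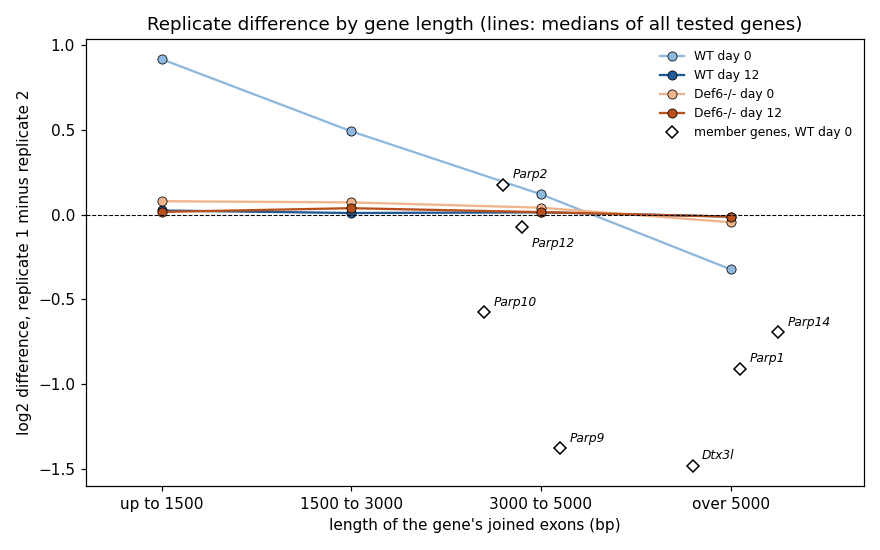
Median log2 difference between replicate 1 and replicate 2 of each group (lines) for tested genes in 4 classes of exon length in bp, with the 7 member genes in WT day 0 as diamonds. WT day 0 runs from 0.92 to -0.32 and the other groups stay between -0.05 and 0.08; all members but Parp2 lie below the WT day 0 line in their class.

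The first question is how these genes behave as osteoblastic cells differentiate. In WT cells, all 5 interferon-responsive members were higher at day 12 than at day 0 with an adjusted p under 0.05, by 2.17-fold for Parp12, 4.09-fold for Parp9, 4.60-fold for Parp10, 5.01-fold for Dtx3l and 8.15-fold for Parp14. Neither Parp1 nor Parp2 was called. Over all tested genes, 12.7% were called higher and 5.63% lower at day 12 in WT cells. The median log2 difference of the 5 members was 2.20, against -0.00095 over all genes tested.

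Parp14, a large macrodomain protein that transfers single ADP-ribose units, was at 3.55 and 6.36 normalized CPM in WT replicates 1 and 2 at day 0 and at 43.9 and 48.6 at day 12. The day 12 libraries lay far above those of day 0. The log2 difference was 3.03 (SE 0.39, adjusted p = 0.00114, n = 2 libraries per group, limma).

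Parp10, a mono-ADP-ribosyltransferase that can ADP-ribosylate both proteins and RNA ends, was at 6.31 and 9.89 normalized CPM in WT cells at day 0 and at 35.9 and 44.8 at day 12. Both day 12 libraries were above both day 0 libraries, with a log2 difference of 2.20 (SE 0.34, adjusted p = 0.00263).

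Parp9 was at 5.92 and 17.0 normalized CPM in WT cells at day 0 and at 37.3 and 53.2 at day 12. Its partner Dtx3l was at 3.16 and 10.6 at day 0 and at 26.1 and 43.6 at day 12. For both genes the days did not overlap, and replicate 1 was the lower library on each day. At day 0 that is the library that stood apart, and against WT day 0 replicate 2 alone both rises are smaller. The log2 differences were 2.03 (SE 0.45, adjusted p = 0.0156) and 2.32 (SE 0.48, adjusted p = 0.0106).

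Parp12, which resides at the Golgi apparatus and moves to stress granules, was already at 24.1 and 25.4 normalized CPM in WT cells at day 0 and was at 46.5 and 64.9 at day 12. The days did not overlap, and the log2 difference of 1.12 (SE 0.25, adjusted p = 0.0157) was the smallest of the 5. In all 5 members both day 12 libraries lay above both day 0 libraries, which held for 29.3% of all tested genes.

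Parp1, the main DNA-damage-activated polymerase, was at 51.3 and 97.2 normalized CPM in WT cells at day 0 and at 64.9 and 52.8 at day 12. Both day 12 values fell between those of day 0, and the log2 difference was -0.27 (SE 0.30, adjusted p = 0.582). Parp2, which shares this role, was at 22.5 and 19.8 at day 0 and at 20.7 and 14.7 at day 12, with overlapping days and a log2 difference of -0.26 (adjusted p = 0.521). Without WT day 0 replicate 1, Parp1 was lower at day 12 by -0.72 on the log2 scale with an adjusted p of 0.0258, in a fit that called 3096 genes against 2260, so that the missing call for Parp1 rests on that library. The 5 calls above held without it. With only the 4 WT libraries fitted, Parp10 and Parp14 were called (adjusted p = 0.0148 and 0.00736) and Parp9, Dtx3l and Parp12 were not (adjusted p = 0.0607, 0.0551 and 0.0705), in a fit that called 1093 genes against 2260. All 5 calls also held without WT day 0 replicate 2, whereas Parp9 and Parp12 lost theirs without WT day 12 replicate 1 (adjusted p = 0.0757 and 0.0512), and Parp9, Dtx3l and Parp12 without WT day 12 replicate 2 (0.131, 0.105 and 0.151).

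**Figure D2:**
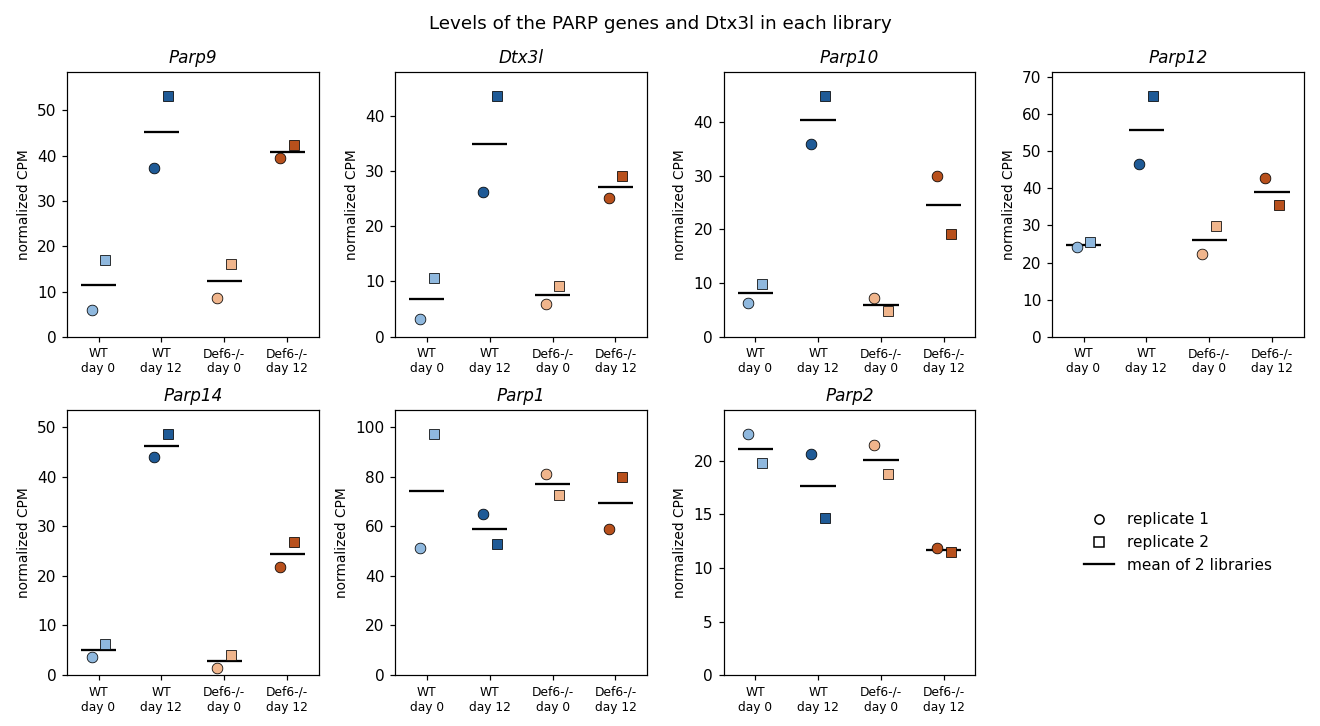
Normalized CPM (linear axis from 0, a scale of its own for each gene) of the 7 genes in the 8 libraries, with circles for replicate 1, squares for replicate 2 and a bar for the mean of the 2 libraries. The 5 interferon-responsive genes are higher at day 12 than at day 0 in both genotypes, and Parp10, Parp12 and Parp14 have both Def6-/- libraries below both WT libraries at day 12.

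Def6-/- cells were compared over the same interval. There 4 of the 5 interferon-responsive members were called higher at day 12, where 12% of all tested genes were called higher and 4.79% lower. The exception was Parp12. The median log2 difference of the 5 was 1.73, against 0.0098 over all genes tested.

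Parp14 was at 1.505 and 4.09 normalized CPM in Def6-/- replicates 1 and 2 at day 0 and at 21.8 and 26.9 at day 12, a log2 difference of 2.82 (SE 0.39, adjusted p = 0.00159) and a 7.06-fold rise. Its level at day 0 rests on 4 and 12 reads. Parp10 was at 7.15 and 4.77 at day 0 and at 30.0 and 19.2 at day 12, a difference of 1.87 (SE 0.34, adjusted p = 0.00568). In both genes the day 12 libraries lay clearly above those of day 0.

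Parp9 was at 8.65 and 16.01 normalized CPM in Def6-/- cells at day 0 and at 39.4 and 42.3 at day 12, a log2 difference of 1.71 (SE 0.45, adjusted p = 0.0333). Dtx3l was at 6.02 and 9.20 at day 0 and at 25.0 and 29.0 at day 12, a difference of 1.73 (SE 0.48, adjusted p = 0.0387). As in WT cells, the partners moved together and the days did not overlap.

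Parp12 was at 22.2 and 30.0 normalized CPM in Def6-/- cells at day 0 and at 42.7 and 35.4 at day 12. These libraries did not overlap, but the log2 difference of 0.57 (SE 0.25, adjusted p = 0.162) was not called. Both libraries of day 12 were above both of day 0 in all 5 members and in 35.2% of all tested genes.

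Parp1 was at 81.3 and 72.5 normalized CPM in Def6-/- cells at day 0 and at 58.7 and 79.8 at day 12, overlapping, with a log2 difference of -0.16 (adjusted p = 0.781). Parp2 was at 21.4 and 18.7 at day 0 and at 11.9 and 11.5 at day 12. Here the day 12 libraries were below those of day 0, and the log2 difference was -0.73 (SE 0.26, adjusted p = 0.0911). Such a separation was seen for 32.4% of tested genes in Def6-/- cells and for 26.6% in WT cells. Parp2 was called lower when either WT day 0 library was left out (adjusted p = 0.0337 without replicate 1 and 0.0345 without replicate 2), in fits that called 4300 and 4312 genes against 2076, a change that comes through the estimate of the spread shared by all groups.

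In WT cells the calls of Parp10 and Parp14 held with any 1 library left out, but in Def6-/- cells the calls of the partner genes did not. Without either WT day 12 library or any 1 of the 4 Def6-/- libraries, Parp9 and Dtx3l in Def6-/- cells were no longer called; in the order WT day 12 replicates 1 and 2, Def6-/- day 0 replicates 1 and 2 and Def6-/- day 12 replicates 1 and 2, the adjusted p was then 0.0758, 0.0637, 0.233, 0.0526, 0.146 and 0.171 for Parp9. It was 0.0760, 0.0647, 0.233, 0.0918, 0.147 and 0.199 for Dtx3l. Parp10 lost its call without Def6-/- day 0 replicate 2 (0.0509) or Def6-/- day 12 replicate 1 (0.06585), and Parp14 kept its call in all of them. The log2 difference of Dtx3l also missed the threshold with a pseudocount of 0.1 (adjusted p = 0.0525) and with no filter on low values (0.0552).

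Macrophage markers rose over the same interval. Of 16 markers, 15 were called higher at day 12 in WT cells (median log2 difference 3.33) and 14 in Def6-/- cells (3.13). Their summed level was between 205 and 436 normalized CPM in the 4 day 0 libraries and between 3275 and 6449 in the 4 day 12 libraries, with Lyz2 the largest contributor in each library. At day 0, Aif1 was at 0 in 2 libraries, and no marker was at 0 at day 12. For Ptprc, which encodes CD45, 3 of the deposited values were not whole numbers of reads, and its level was used as it stands. The list leaves out Adgre1, Cd14, Csf1r, Fcgr3 and Itgam, which also had values that were not whole. The study, by contrast, reports only very low levels of macrophage and osteoclast marker genes in these cultures, with no difference between genotypes. It also reports lower interferon response genes in Def6-/- cultures from which CD45-positive cells had been removed. In bulk RNA, fewer cells of a type and less RNA per cell cannot be told apart, and the part of these cells in the rise of the PARP genes was not tested.

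**Figure D3:**
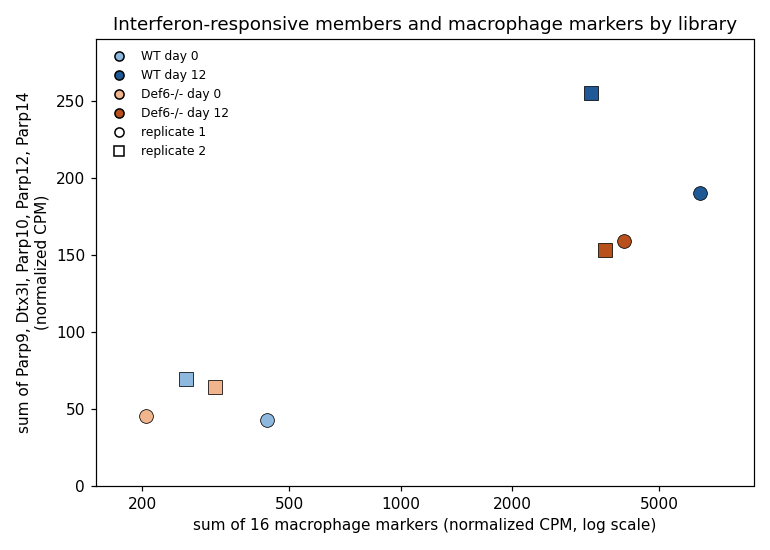
Summed normalized CPM of the 5 interferon-responsive members (linear axis from 0) against the sum of 16 macrophage markers (log axis) in each library. Both sums are higher at day 12. Of the 2 libraries of a group, the one with the higher marker sum has the lower member sum in WT cells on both days. In Def6-/- cells it has the higher member sum on both days.

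The next question is whether loss of Def6 changed these genes at day 12. All 5 interferon-responsive members had negative log2 differences between Def6-/- and WT cells, with a median of -0.49 against -0.00055 over all genes tested. Parp14 was lower at an unadjusted p under 0.05 and more than 1.2-fold, the study's own criterion, which called 0.591% of all tested genes lower and 0.810% higher. The other 4 were not called, and no member had an adjusted p under 0.05 (limma), as Def6 was the only gene that did. The study shows Parp10 and Parp14 among the interferon response genes it chose from these same samples, so their direction is not independent evidence.

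Parp14 was at 43.9 and 48.6 normalized CPM in WT libraries and at 21.8 and 26.9 in Def6-/- libraries at day 12. The genotypes did not overlap, and Parp14 was 1.87-fold lower in Def6-/- cells (log2 difference -0.91, SE 0.39, 95% confidence interval -1.79 to -0.02, limma adjusted p = 1). The call was lost without each day 12 library in turn, at log2 differences of -0.98 and -0.83 without WT replicates 1 and 2, and of -0.76 and -1.05 without Def6-/- replicates 1 and 2. It was also lost with a pseudocount of 0.1 (-0.93) and with no filter on low values (-0.91).

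Parp10 was at 35.9 and 44.8 normalized CPM in WT libraries and at 30.0 and 19.2 in Def6-/- libraries, which did not overlap. Its log2 difference was -0.72 (SE 0.34, interval -1.48 to 0.05, adjusted p = 1). Parp12 was at 46.5 and 64.9 in WT libraries and at 42.7 and 35.4 in Def6-/- libraries, again with no overlap and a difference of -0.49 (SE 0.25, interval -1.06 to 0.08, adjusted p = 1). Parp10, Parp12 and Parp14 thus had both Def6-/- libraries below both WT libraries, as did Parp2; 15.9% of all tested genes showed this order and 16.8% the opposite one.

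Parp9 was at 37.3 and 53.2 normalized CPM in WT libraries and at 39.4 and 42.3 in Def6-/- libraries, and both Def6-/- values lay between those of WT. The log2 difference was -0.12 with an interval from -1.15 to 0.90. Dtx3l was at 26.1 and 43.6 in WT libraries and at 25.0 and 29.0 in Def6-/- libraries, also overlapping, with a difference of -0.31 and an interval from -1.39 to 0.77. These intervals hold the difference seen for Parp14, so a change of that size in Parp9 and Dtx3l cannot be told from none with 2 libraries per genotype.

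Among the housekeeping members, Parp2 was at 20.7 and 14.7 normalized CPM in WT libraries and at 11.9 and 11.5 in Def6-/- libraries, below WT without overlap (log2 difference -0.53, interval -1.12 to 0.05, adjusted p = 1). Its size is thus close to that of Parp12. Parp1 was at 64.9 and 52.8 in WT libraries and at 58.7 and 79.8 in Def6-/- libraries, overlapping, with a difference of 0.22 (interval -0.47 to 0.91).

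Which of Parp10, Parp12 and Parp2 pass the study's criterion depended on the libraries in the fit. Without WT day 0 replicate 1, all 3 were called lower along with Parp14, at log2 differences that did not move (-0.72, -0.49 and -0.53), and likewise without WT day 0 replicate 2. Those fits called 458 and 455 of all tested genes, against 173 with all 8 libraries. Parp10 was also called without Def6-/- day 12 replicate 1 (-1.03), and Parp2 without WT day 12 replicate 2 (-0.77). A fit of the 4 day 12 libraries alone called Parp10 and Parp12 beside Parp14, and called 554 of all tested genes.

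The macrophage marker sums at day 12 were 6449 and 3275 normalized CPM in WT libraries and 4029 and 3568 in Def6-/- libraries, so the genotypes overlapped. All 16 markers had negative log2 differences between Def6-/- and WT cells, with a median of -0.32 beside the -0.49 of the 5 members. None of the 16 was called, 1 of them had no WT library as low as the Def6-/- ones, and their part in the lower member levels was not tested. The summed level of the 5 interferon-responsive members was 189.7 and 255 in WT libraries and 159 and 153 in Def6-/- libraries.

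**Figure D4:**
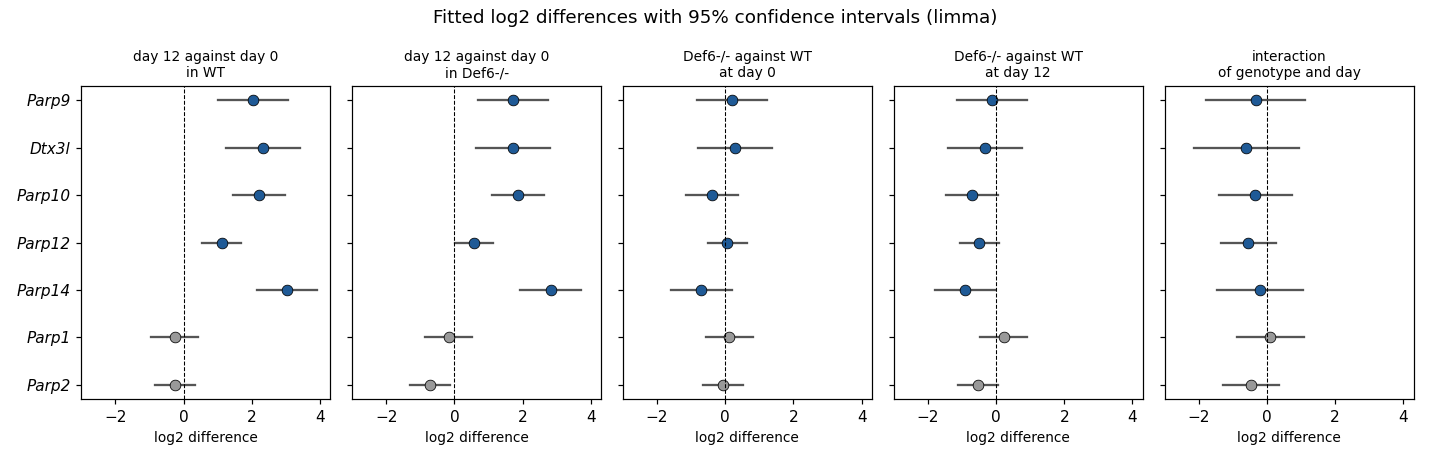
Fitted log2 differences (points) with 95% confidence intervals (lines) of the 7 genes in 5 comparisons, interferon-responsive members in blue and Parp1 and Parp2 in grey. The intervals of all 5 interferon-responsive members lie above 0 in both comparisons of day 12 with day 0, while at day 12 between genotypes the interval of Parp14 alone excludes 0, by 0.02.

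At day 0, the genotypes overlapped in all 7 genes and none was called, where 0.988% of tested genes were called higher and 1.31% lower in Def6-/- cells. The log2 differences were 0.20 for Parp9, 0.28 for Dtx3l, -0.38 for Parp10, 0.06 for Parp12 and -0.70 for Parp14 (interval -1.58 to 0.19, adjusted p = 0.908). They were 0.12 for Parp1 and -0.07 for Parp2. WT day 0 replicate 1 bears on this comparison directly, since it was below replicate 2 by 1.38 on the log2 scale for Parp9, 1.48 for Dtx3l, 0.91 for Parp1, 0.69 for Parp14 and 0.57 for Parp10. Without it, the differences of Parp9, Dtx3l and Parp1 turned to -0.48, -0.45 and -0.33, and that of Parp2 to 0.02, none of them called. Parp14 was then called lower in Def6-/- cells, at a log2 difference of -1.04, with 18 Parp14 reads in the WT library that was left. It was called at -1.21 without Def6-/- day 0 replicate 2, with 4 Parp14 reads in the Def6-/- library that was left. With 1 library in a group, these calls do not show a lower Parp14 level at day 0. Without WT day 0 replicate 2, so that replicate 1 alone stood for WT, Parp9, Dtx3l and Parp1 were called higher in Def6-/- cells, by 0.89, 1.02 and 0.57, in a fit that called 4584 of the 12348 tested genes. The genotype difference of these 3 genes at day 0 is thus set by which WT library is used.

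Whether the rise from day 0 to day 12 differed between genotypes was tested as an interaction of genotype and day. With all 8 libraries, the 5 interferon-responsive members had negative estimates, meaning a smaller rise in Def6-/- cells, of -0.32 for Parp9, -0.60 for Dtx3l, -0.34 for Parp10, -0.55 for Parp12 and -0.21 for Parp14. None was called, and each had a limma adjusted p of 0.9998. At an unadjusted p under 0.05, 0.421% of tested genes had a negative interaction, and no gene had an adjusted p under 0.05. Of all genes, 138 had an unadjusted limma p under 0.05, against 143 by edgeR and 45 by DESeq2. The intervals were wide, from -1.35 to 0.26 for Parp12, which had the smallest p of the 5, and from -2.13 to 0.93 for Dtx3l. Without WT day 0 replicate 1, the sign turned for 3 of the 5, with estimates of 0.36 for Parp9, 0.14 for Dtx3l and 0.14 for Parp14, and stayed negative for Parp10 (-0.05) and Parp12 (-0.51). None was called there, in a fit that called 439 genes against 138. That Parp12 was called over time in WT and not in Def6-/- cells is therefore not shown to be a difference between them. Without WT day 0 replicate 2, the interaction passed the unadjusted threshold for Parp9 (-1.01) and Dtx3l (-1.34), in a fit that called 3334 genes.

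Receptors, kinases and transcription factors of the interferon signal were examined in a list of 8 genes. In WT cells 4 were called higher at day 12, namely Stat2 (log2 difference 1.99, adjusted p = 0.00367), Irf9 (1.65, adjusted p = 0.00421), Irf7 (2.36, adjusted p = 0.00883) and Irf1 (0.86, adjusted p = 0.0402). In Def6-/- cells 3 were, namely Stat2 (1.18), Irf9 (0.96) and Irf7 (2.22). Over all tested genes, 12.7% were called higher at day 12 in WT cells and 12% in Def6-/- cells. All 7 of these calls held without WT day 0 replicate 1, where Jak1 was also called lower at day 12 in both genotypes (-0.72 in WT, -0.56 in Def6-/-).

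Between genotypes at day 12, 2 of the 8 were called lower in Def6-/- cells, where 0.591% of all tested genes were. Irf7, which drives the later phase of interferon production, was at 29.0 and 56.5 normalized CPM in WT libraries and at 15.6 and 13.2 in Def6-/- libraries (log2 difference -1.43, limma adjusted p = 1). Irf9, a DNA-binding partner of Stat2, was at 67.2 and 70.8 in WT libraries and at 47.6 and 39.7 in Def6-/- libraries (-0.65, adjusted p = 1). In 5 of the 8 genes the Def6-/- libraries all lay under the WT libraries, among them Stat2 (-0.61), which was not called with all libraries and was called without WT day 0 replicate 1 at the same difference. At day 12, 15.9% of all tested genes had both Def6-/- libraries below both WT libraries. Irf7 was also called lower at day 0, by -1.30, as were 1.31% of all tested genes.

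Of 10 other PARP family genes tested, none was called between genotypes on either day. Tiparp, a mono-ADP-ribosyltransferase induced by the aryl hydrocarbon receptor, was at 77.7 and 59.4 normalized CPM in WT cells at day 0 and at 28.4 and 23.5 at day 12, and was called lower at day 12 in both genotypes (log2 difference -1.36 in WT, adjusted p = 0.00644, and -1.02 in Def6-/-, adjusted p = 0.0248). Parp16, a membrane-anchored member of the endoplasmic reticulum, was at 2.63 and 2.38 in Def6-/- cells at day 0 and at 12.7 and 5.55 at day 12 and was called higher (1.44, adjusted p = 0.0493), from 7 to 31 reads a library. The log2 difference over time was positive for 7 of the 10 in each genotype, with a median of 0.50 in WT and 0.16 in Def6-/- cells. The WT count and median depend on WT day 0 replicate 1, since Tnks (-0.38) and Tnks2 (-0.11) turned negative in WT cells without it. With all libraries, Parp4 (1.13), Parp16 (1.11) and Zc3hav1 (1.15) had the highest values in WT cells and were not called. Without WT day 0 replicate 1, Parp4 fell to 0.35 and Zc3hav1 to 0.17, while Parp16 stayed at 1.11.

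Genes that supply or use NAD, the substrate of PARPs, were called in both directions over time. Nampt, the rate-limiting enzyme of NAD salvage, was higher at day 12 (log2 difference 1.38 in WT, adjusted p = 0.00896, and 1.25 in Def6-/-, adjusted p = 0.0144). Nadk, which converts NAD to NADP, was lower (-0.84 and -0.87), and Nmrk1, a nicotinamide riboside kinase, was lower in WT cells (-1.29). Of 8 tested genes of NAD supply, 1 was called higher and 2 lower in WT cells, and 1 each in Def6-/- cells. Among 9 other consumers of NAD, Bst1, an ADP-ribosyl cyclase also found on myeloid cells, was higher in both genotypes (3.67 and 3.17), and Sirt3, a mitochondrial deacylase, was higher in Def6-/- cells (1.30). No gene of these lists was called between genotypes on either day with all libraries. Without WT day 0 replicate 1, Naprt, which makes NAD from nicotinic acid, was called higher at day 0 in Def6-/- cells (0.76) and at day 12 in WT cells (1.65), and had a called interaction (-1.07). Calls over time were then also added for Nmnat2 (-1.02) and Cd38 (1.74) in Def6-/- cells and for Sirt2 in both genotypes (0.67 in WT, 0.57 in Def6-/-).

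None of the 3 tested Deltex genes related to Dtx3l (Dtx2, Dtx3 and Dtx4) and none of the 6 genes of ADP-ribose removal was called in any comparison with all libraries, though Dtx3 was called higher at day 12 in Def6-/- cells without WT day 0 replicate 1 (0.60, adjusted p = 0.0104). Of 7 partners of Parp1 and Parp2 in strand break repair, Aplf alone was called. It was at 8.29 and 12.7 normalized CPM in WT libraries and at 5.64 and 4.77 in Def6-/- libraries at day 0, a log2 difference of -0.87 that did not pass the adjustment.

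Levels of different genes were compared per kilobase of joined exons. At day 0 the order was the same in both genotypes, with Parp1 first at 14.02 normalized CPM per kb in WT and 14.5 in Def6-/- cells, then Parp12 (6.20 and 6.53) and Parp2 (5.83 and 5.54), whose libraries overlapped. Parp9 (2.35 and 2.53), Parp10 (1.90 and 1.39) and Dtx3l (1.201 and 1.33) followed, and Parp14 was lowest (0.533 and 0.3004). In WT cells all neighbours among these last 4 overlapped, and replicate 2 alone gave the same order as the mean. In Def6-/- cells Parp9 was apart from Parp10, and Dtx3l from Parp14.

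At day 12 in WT cells, Parp12 (13.9 normalized CPM per kb) and Parp1 (11.1) overlapped at the top, and Parp10 (9.44) and Parp9 (9.29) came next, each overlapping its neighbour above. Dtx3l (6.08) was apart from Parp9, and Dtx3l, Parp14 (4.97) and Parp2 (4.87) overlapped in turn. In Def6-/- cells at day 12, Parp1 (13.1) stood apart from Parp12 (9.78), which stood apart from Parp9 (8.38), and Parp10 (5.75) and Dtx3l (4.72) overlapped. Parp2 (3.23) and Parp14 (2.61) closed the order, each apart from its neighbour above.

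Parp9 and Dtx3l share 458 bp of exon on opposite strands, 9.40% of the exons of Parp9 and 8% of those of Dtx3l, and reads there cannot be told apart unless counting used the strand, a setting not given in the sources used here. In WT cells there were 15 Parp9 reads and 8 Dtx3l reads in replicate 1 and 48 and 30 in replicate 2 at day 0, and 130 and 91 in replicate 1 and 127 and 104 in replicate 2 at day 12. In Def6-/- cells there were 23 and 16 in replicate 1 and 47 and 27 in replicate 2 at day 0, and 96 and 61 in replicate 1 and 99 and 68 in replicate 2 at day 12. Parp9 had more reads than Dtx3l in all 8 libraries, and the ratio stayed between 1.22 and 1.88.

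Likeness of pattern was measured as the root mean square difference between log2 profiles over the 8 libraries, each centred on its own mean, among 10972 genes. The profiles share libraries and depth, so the order is a description. Dtx3l was the gene most like Parp9 of all (0.144), and Parp9 was the second most like Dtx3l, after Sema6a (0.143). Outside the members, Sema6a (0.146), Bicc1 (0.179) and Trim25 (0.182) were closest to Parp9, and Sema6a, Ildr2 (0.212) and Nrk (0.222) to Dtx3l. The genes closest to Parp10 were Slc15a3 (0.257), Gla (0.263) and Tmem140 (0.284), and those closest to Parp14 were Cmpk2 (0.241), Arhgap19 (0.310) and Fndc5 (0.349). Cmpk2 encodes an interferon-inducible mitochondrial nucleotide kinase and was at a mean of 14.1 normalized CPM in WT and 6.69 in Def6-/- cells at day 12.

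Parp12 had Rab29 (0.153), Bbs1 (0.162) and Phyh (0.164) closest to it, and the other interferon-responsive members were farther off, at 0.636 for Parp9 to 1.12 for Parp14. Parp1 (0.691) and Parp2 (0.733) lay within that same range from Parp12. The housekeeping members had close matches, with Tmem129 (0.0909), Dcp1a (0.104) and Fam199x (0.107) for Parp1 and Nup85 (0.128), Snrnp40 (0.130) and Zfp143 (0.136) for Parp2. Parp1 and Parp2 differed from each other by 0.431. Parp9 and Dtx3l were thus the only pair of the 7 that ranked among the 2 closest genes of each other.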

How the data were processed

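RNA of 8 libraries was analysed. Per the labels and the study's methods, the authors used fastp for trimming, HISAT2 for alignment to mm10, HTSeq for counting and edgeR for the CPM they deposited; versions, annotation and strand setting are not given in the sources used here. The deposited CPM are per 1000000 of all reads, of which 64.7% to 71.2% fell on entries that name no gene; these were left out. Values were whole multiples of 1 read (within 0.01) in 99.957% of 114821 positive values. The 49 exceptions were not scattered: all belonged to Acp5, Adgre1, Cd14, Csf1r, Ctsk, Fcgr3, Itgam, Itgb3 and Ptprc.

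CPM were rescaled to reads on genes with TMM factors, and limma 3.58.1 (R 4.3.3) was fitted to log2(CPM + 1) with 4 group means, two-sided, on the 12348 genes whose group mean of deposited CPM reached 1 at least once. Between genotypes and for the interaction, calls used the study's unadjusted p under 0.05 (with over 1.2-fold between genotypes); between days, Benjamini-Hochberg adjusted p under 0.05. Recovered reads were also tested with edgeR 4.0.16 and with DESeq2 1.42.0. An exact permutation test of 2 against 2 cannot give p below 0.333. Whether replicates came from separate animals is stated only as biological replicates. Exon lengths and positions are from GENCODE M21, for 96.6% of tested genes. The fit was tested on simulated data only for the genotype comparison at day 12, with changes placed in the Def6-/- day 12 group. The comparisons over time and the interaction were not tested in this way.

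Members and lists were chosen with earlier results of these data known, and 1 listed gene is not reported here. The rule named every member, the called genes of each list (or up to 4 with the smallest p) and the 3 genes most like each member; macrophage markers, and lists with no call, are given mostly as counts.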

Additional observations from a re-analysis of the deposited data

How the results depend on the processing

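No called member changed direction under any alternative. Without WT day 0 replicate 1, the uncalled interaction turned sign for Parp9, Dtx3l and Parp14. The uncalled genotype difference at day 0 then turned sign for Parp9, Dtx3l, Parp1 and Parp2. At day 12 between genotypes, the number of member genes called was 1 in the fit reported and 0 with a pseudocount of 0.1 (Parp14 at -0.93), 0 with no filter on low values (-0.91), 3 with only the groups compared, and 0 to 4 when 1 library was left out. It was 0 at day 0 (0 to 3 with 1 library left out), 5 over time in WT cells (2 with only the groups compared, 2 to 6 with 1 library left out), 4 over time in Def6-/- cells (1 to 5) and 0 for the interaction (0 to 2). edgeR, DESeq2 and CPM as deposited called the same members. Left-out fits leave a group with 1 library, which is assumed to vary like the others.

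Same-numbered libraries deviated together weakly (correlations 0.00232 to 0.327, 4 of 6 under 0.1). All 6 were positive, so whether the numbers pair the libraries is not settled. With the replicate block, 1, 0, 5, 4 and 0 members were called in the same order, and all genes called rose from 173 to 202 at day 12.

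Over all genes, the calls at day 12 were 173, against 459 with no filter, 554 with only the groups compared and 85 by DESeq2. They were 284 at day 0, against 100 with only the groups compared. Over time they were 2260 in WT cells and 2076 in Def6-/- cells, against 1093 and 3909 with only the groups compared. For the interaction they were 138, against 326 with no filter and 45 by DESeq2. With CPM as deposited, 119 genes were higher and 51 lower at day 12 (100 and 73 as reported), and 138 and 53 at day 0 (122 and 162). Between 4 and 18 reads on Parp14 in a day 0 library limit what can be seen at day 0.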
